A study of Rattus norvegicus and Sus scrofa and Bos taurus with 188 samples.

Results

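Polycomb repressive complex 2 (PRC2) is described here by the transcripts of its subunits in pig morulae. The genes were taken by name from the table of the series, as the rows whose gene name was EZH1, EZH2, EED, SUZ12, RBBP4, RBBP7, JARID2, AEBP2, MTF2 or PHF19. All 10 names were found, with 38 transcript rows, among 15877 gene names and 37571 rows in all. The first 6 of these genes are called the core below and the other 4 the accessory subunits.

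The series profiles DNA methylation, histone marks including H3K27me3, and RNA in eggs and early embryos of several mammals, with 188 samples in 90 groups in the labels used here. The values come from 1 of these groups, the Smart-seq2 RNA libraries of pig (Sus scrofa) embryos labelled as morulae and marked PG. Labels of sister samples spell out PG as parthenogenetically activated, that is, grown from an activated egg without sperm, so such embryos hold a maternal genome and no paternal one. The 4 libraries of the group were merged by the authors into 1 column of FPKM (fragment numbers divided by transcript length and by library size). No strain, embryo age or number of embryos per library is given in the labels, which name total RNA as the material. No second group enters, so every comparison below sets genes or transcripts of the same embryos beside each other. With 1 column there is no spread between replicates, the depth is unknown, and no value below carries an SD or a test.

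PRC2 places methyl groups on lysine 27 of histone H3, the mark H3K27me3 that lies on silenced developmental genes. EZH2 or its paralogue EZH1 is the catalytic subunit, SUZ12 is the scaffold on which the complex is built, and EED binds the finished mark and stimulates the enzyme. RBBP4 and RBBP7 are histone-binding proteins that PRC2 shares with other complexes. Accessory subunits come in 2 alternative classes: a Polycomb-like protein (MTF2, PHF19 or PHF1), which may be joined by EPOP or an LCOR-type protein, or JARID2 with AEBP2. In mammalian eggs and early embryos H3K27me3 is removed and laid down again over wide regions, and in mouse a maternal share of it silences some genes on the maternal chromosomes.

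Marker genes of the embryo, the egg and other cells were counted, which does not test the labelled stage. All 8 markers of the early embryo stood at 1 FPKM or more, as did 50.6% of all genes. The markers ran from 5.36 FPKM for SOX2 to 194 FPKM for TFAP2C. Egg transcripts were also present, with 7 of 7 measured genes at 1 FPKM or more and OOSP2 highest at 179 FPKM. Of 7 measured markers of cumulus and granulosa cells, the cells around the egg, CYP19A1 alone reached 1 FPKM by summed rows (1.06 FPKM). Its highest row was at 0.835 FPKM, and FSHR, FOXL2 and TNFAIP6 were listed at 0. Of 4 blood markers CD14 alone did (2.38 FPKM). RNA stored in the egg and RNA made by the embryo cannot be told apart in these values, nor can fewer cells of a type and less RNA per cell.

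All 10 PRC2 genes stood at 1 FPKM or more when the rows of a gene were summed, against 50.6% of all genes. Their summed levels ran from 255 FPKM for RBBP4 to 1.83 FPKM for EZH1, a 140-fold range. The median of the 10 was 29.6 FPKM, beside 1.06 FPKM over all genes and 7.95 FPKM over the genes at 1 FPKM or more. Of the 10, 8 reached 5 FPKM (31.1% of all genes did), the same number reached 10 FPKM (22.7%) and 2 reached 100 FPKM (3.5%). With a gene's highest row in place of the sum, 10 of the 10 stood at 1 FPKM or more (48.8% of all genes), 6 at 10 FPKM (20.2%) and 1 at 100 FPKM (3.14%). The genes that passed 10 or 100 FPKM by the sum alone were SUZ12 and JARID2 at 10 FPKM and EED at 100 FPKM. PHF19 and EZH1 were the members below the median of the expressed genes. Together the 10 genes took 584 FPKM, or 0.191% of the FPKM total of the table. That total takes the 474 rows that end the table at 0, though their levels are not known. The histone-binding pair RBBP4 and RBBP7 made up 55.1% of the 584 FPKM, and RBBP4, EED and RBBP7 made up 78.7%.

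**Figure D1:**
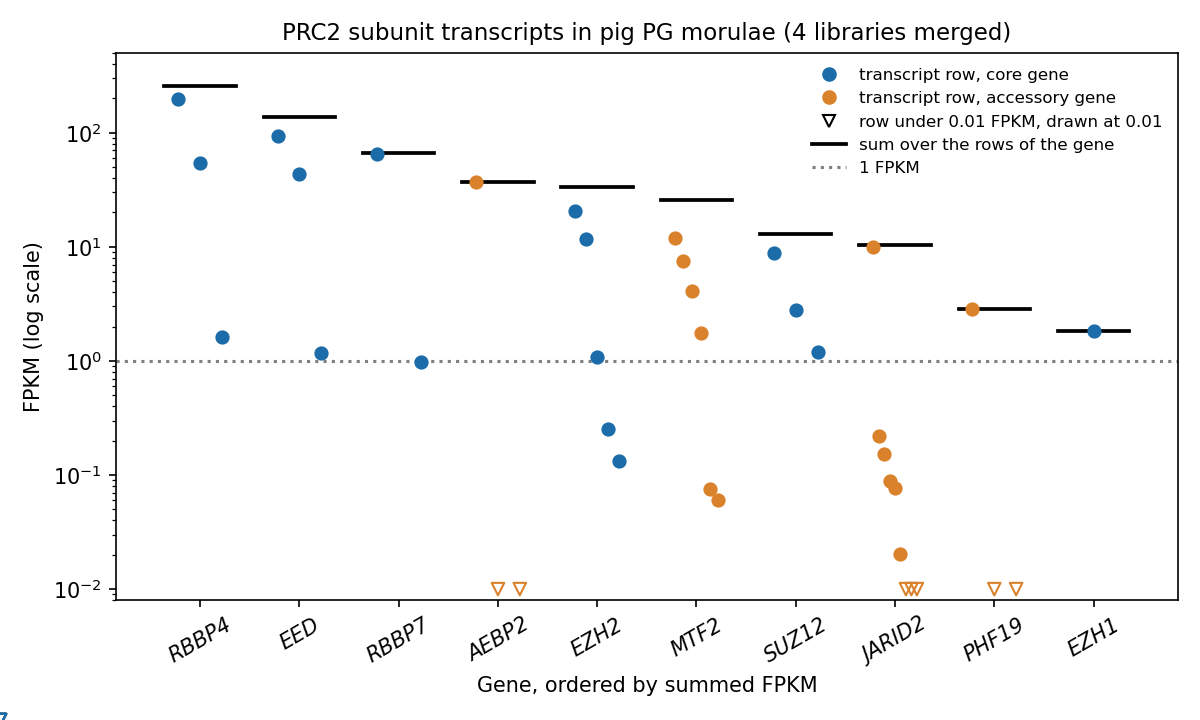
FPKM on a log scale of every transcript row (points) and of the sum over rows (black bars) for the 10 PRC2 genes, ordered by sum; open triangles are rows under 0.01 FPKM, drawn at 0.01. In RBBP4, EED, EZH2, MTF2 and SUZ12 the bar stands clear of the highest row, which holds 47.1% to 77.9% of the sum, while the sums of RBBP7, AEBP2, JARID2, PHF19 and EZH1 lie on or next to a single row.

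The catalytic subunits differed widely. EZH2 stood at 33.7 FPKM with its 5 rows summed, rank 1566 of all genes, and EZH1 at 1.83 FPKM in its 1 row, rank 6965. EZH2 was thus 18.4 times EZH1 by sums, and 11.2 times by the highest row of each. EZH2 was spread over transcripts: ENSSSCT00000023706.2 held 20.5 FPKM (60.7% of the sum) and ENSSSCT00000064179.1 held 11.8 FPKM (35.0%). The highest EZH2 row was 1.73 times the next. ENSSSCT00000050801.1 followed at 1.08 FPKM, and the 2 remaining rows at 0.253 and 0.133 FPKM came to 0.751% and 0.395% of the sum. Each of the 2 leading EZH2 rows alone was therefore above the whole of EZH1, whose row is ENSSSCT00000018921.3.

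EED, the reader of the mark, was the second highest of the 10 genes at 138 FPKM, rank 378. Its row ENSSSCT00000016271.3 held 92.9 FPKM (67.3%) and ENSSSCT00000044568.1 held 43.9 FPKM (31.8%). The third EED row, ENSSSCT00000061067.1, stood at 1.16 FPKM. With the highest row alone EED lay below 100 FPKM, and its rank was 531.

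SUZ12, the scaffold, was lower than the other core genes except EZH1, at 12.8 FPKM and rank 3091. EED was 10.7 times SUZ12 and EZH2 2.62 times SUZ12 by sums, and by highest rows 10.5 and 2.31 times. All 3 rows of SUZ12 passed 1 FPKM. ENSSSCT00000043030.1 held 8.86 FPKM (68.9%), ENSSSCT00000019312.3 held 2.80 FPKM (21.8%) and ENSSSCT00000052927.1 held 1.19 FPKM (9.24%). FPKM is scaled to transcript length, so these ratios compare levels per length, as far as the transcript lengths used by the authors hold.

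RBBP4 was the highest PRC2 gene, with 1.10% of all genes above it (rank 176). Its row ENSSSCT00000041552.1 held 199 FPKM (77.9%) and ENSSSCT00000023350.2 held 54.7 FPKM (21.4%). The third RBBP4 row, ENSSSCT00000061972.1, stood at 1.61 FPKM. RBBP7, its close paralogue, came to 66.3 FPKM, rank 877, nearly all of it in ENSSSCT00000013288.4 at 65.3 FPKM (98.5%). The other RBBP7 row, ENSSSCT00000024779.2, was at 0.976 FPKM. RBBP4 was 3.85 times RBBP7 by sums and 3.05 times by highest rows. The sources used here do not say how reads that fit both paralogues were counted, so the split between them is uncertain to that extent.

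**Figure D2:**
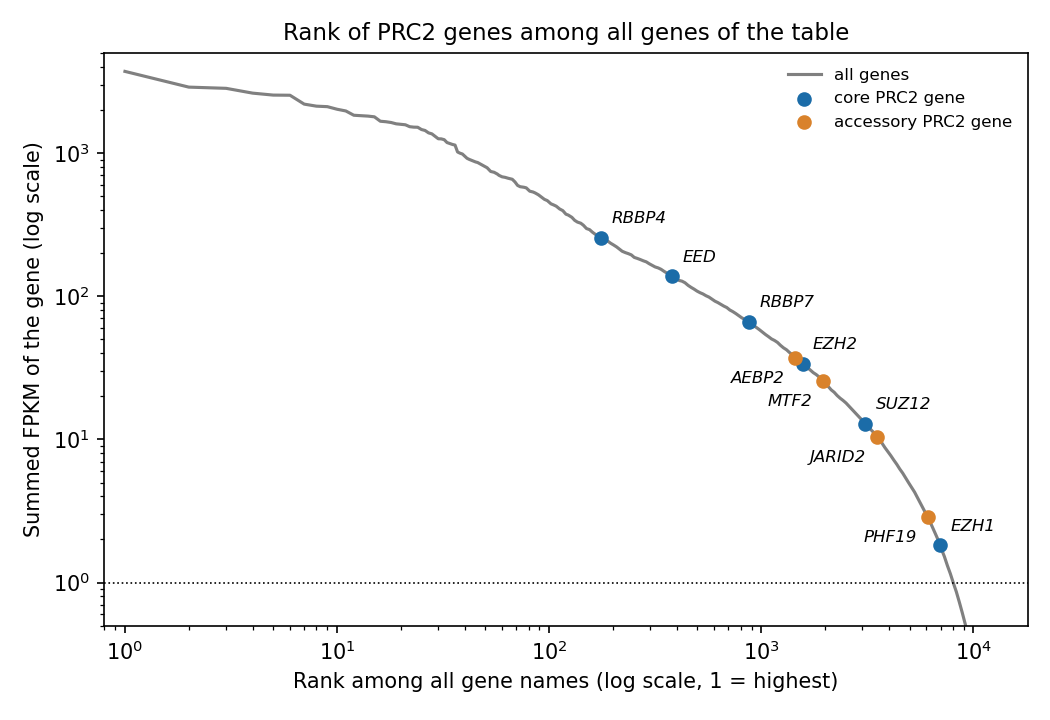
Summed FPKM against rank for all 15877 genes (grey line, both axes on log scales), with the core (blue) and accessory (orange) PRC2 genes marked; the dotted line is 1 FPKM. The 10 genes spread from rank 176 to rank 6965, and core and accessory genes are mixed along the curve.

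Among the accessory subunits, AEBP2 and JARID2 belong to one class. AEBP2, a zinc finger protein, was the highest accessory gene at 36.9 FPKM, rank 1447. All of it lay in ENSSSCT00000000632.3, and its other rows were at 2.79e-08 and 6.87e-09 FPKM. JARID2, a Jumonji family protein without demethylase activity, stood at 10.5 FPKM, rank 3505. AEBP2 was 3.52 times JARID2, although the proteins are found in the same class of PRC2.

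JARID2 had the most rows of the 10 genes, 9, and yet 94.7% of its sum lay in ENSSSCT00000063187.1 at 9.92 FPKM. Its next 5 rows ran from 0.218 FPKM for ENSSSCT00000063145.1 down to 0.0202 FPKM for ENSSSCT00000001155.3. The last 3 rows were at 1.56e-10, 2.35e-62 and 3.74e-80 FPKM. Among 52 expressed genes with 9 rows the median share of the highest row was 53.1%, and 50 of them, JARID2 included, had a share at or below that of JARID2.

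The Polycomb-like genes MTF2 and PHF19, whose proteins bind DNA and the H3K36me3 mark, belong to the other class. MTF2 stood at 25.5 FPKM, rank 1953, and PHF19 at 2.87 FPKM, rank 6097, so MTF2 was 8.91 times PHF19 by sums and 4.20 times by highest rows. The third member of the family, PHF1, was at 0.214 FPKM, rank 10442. MTF2 was thus 120 times PHF1 by sums and 56.3 times by highest rows, and PHF19 was 13.4 times PHF1 by both. PHF19 lay wholly in ENSSSCT00000006060.3, with its other rows at 1.52e-05 and 1.23e-12 FPKM.

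MTF2 was the most evenly divided gene of the 10. ENSSSCT00000034081.2 held 12.03 FPKM (47.1%), ENSSSCT00000007553.3 held 7.48 FPKM (29.3%), ENSSSCT00000046276.1 held 4.13 FPKM (16.2%) and ENSSSCT00000038195.1 held 1.75 FPKM (6.86%). Its last 2 rows were at 0.0755 and 0.0604 FPKM. The sum was 2.12 times the highest row, the widest such gap of the 10 genes, and the rank moved from 1953 by sum to 2839 by highest row. The ratios of MTF2 to the other class also moved with the measure: MTF2 was 2.44 times JARID2 by sums and 1.21 times by highest rows, and AEBP2 was 1.45 times MTF2 by sums and 3.07 times by highest rows.

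By class, MTF2, PHF19, PHF1, EPOP and LCORL, which encodes an LCOR-type partner, summed to 30.4 FPKM, and JARID2 and AEBP2 to 47.4 FPKM. The second class was thus 1.56 times the first, and 2.82 times (46.8 against 16.6 FPKM) by highest rows. Most of the second sum was AEBP2 at 36.9 FPKM, while JARID2 at 10.5 FPKM was below MTF2 at 25.5 FPKM. The first sum lacks LCOR, which was not found under that gene name. The median of the 4 accessory genes was 18.0 FPKM and that of the 6 core genes 50.0 FPKM, a difference of 1.47 on the log2(FPKM + 1) scale. Without RBBP4 and RBBP7 the core median was 23.3 FPKM, and the difference fell to 0.33. Core and accessory genes overlapped: SUZ12 and EZH1 were below AEBP2 and MTF2, and EZH1 was below all 4 accessory genes.

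The order of the 10 genes by sum was RBBP4, EED, RBBP7, AEBP2, EZH2, MTF2, SUZ12, JARID2, PHF19 and EZH1. The closest neighbours were AEBP2 and EZH2, 1.10 times apart, followed by SUZ12 and JARID2, 1.23 times apart. By highest rows JARID2 (9.92 FPKM) passed SUZ12 (8.86 FPKM), and the order of the other 8 genes was the same. The widest step between neighbours, 3.66 times, lay between JARID2 and PHF19. With no replicate spread, no 2 neighbours can be said to differ.

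**Figure D3:**
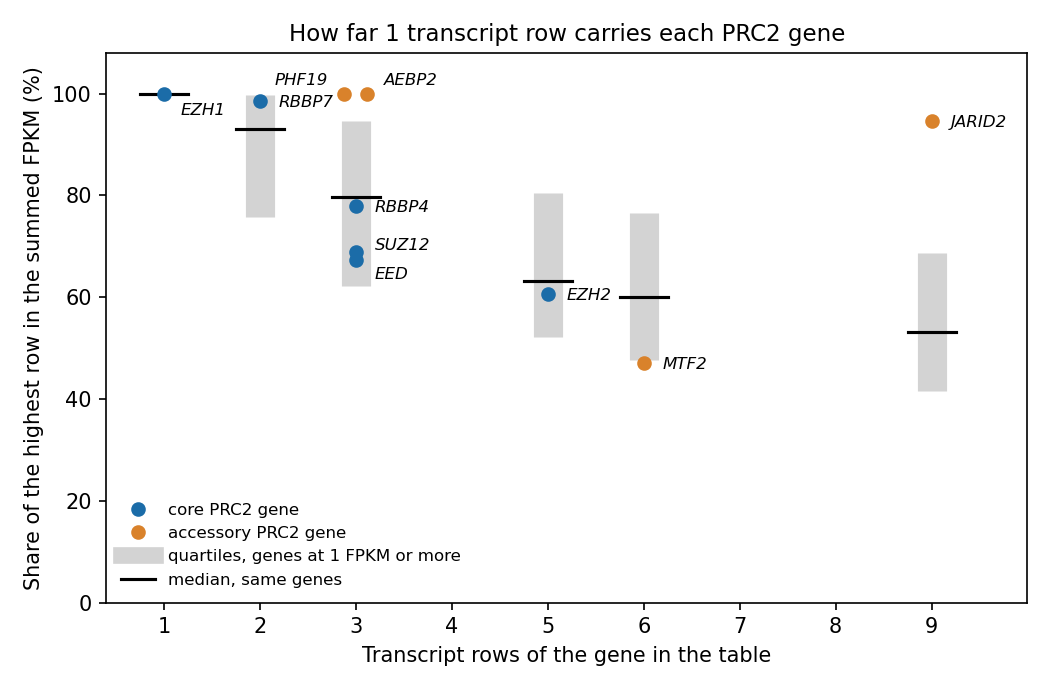
Share of the highest transcript row in the summed FPKM of a gene (percent) against the number of rows of the gene; points are PRC2 genes, and grey bars and black lines give the quartiles and median of all genes at 1 FPKM or more with that number of rows. JARID2, AEBP2 and PHF19 sit above the upper quartile for their number of rows, and MTF2 sits at 47.1%, just under the lower quartile of 47.7%.

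Across the 38 rows, 21 (55.3%) stood at 1 FPKM or more, beside 30.3% of all rows of the table. At the other end 6 of the 38 rows (15.8%) were under 1e-06 FPKM, beside 29.4% of all rows. These 6 rows belonged to JARID2, AEBP2 and PHF19. The 9 genes with more than 1 row split into groups by how many rows were needed to reach 90% of the sum. RBBP7, AEBP2, JARID2 and PHF19 needed 1 row, RBBP4, EED, EZH2 and SUZ12 needed 2, and MTF2 needed 3. Over the 5212 expressed genes with more than 1 row, 36.6% needed 1 row, 45.9% needed 2 and 13.4% needed 3.

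The divided genes were not far from genes with as many rows. The highest row held 77.9% of RBBP4, 68.9% of SUZ12 and 67.3% of EED, beside a median of 79.7% over 1207 expressed genes with 3 rows, whose quartiles were 62.3% and 94.7%. For EZH2 the share of 60.7% stood beside a median of 63.2% over 490 genes with 5 rows. For MTF2, 59 of 241 expressed genes with 6 rows had a share as low or lower. Whether the rows of a gene differ in their protein was not analysed here.

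The measured accessory factors outside the 10 genes were all lower than EZH1, the lowest of the 10. Of 5 listed factors, 3 were measured and LCORL, at 1.74 FPKM, was the one at 1 FPKM or more. PHF1 was at 0.214 FPKM and EPOP, which joins the same class, at 0.0370 FPKM. LCOR and EZHIP, an inhibitor of the enzyme, were not found under these gene names.

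The demethylases that remove H3K27me3 were measured for comparison. KDM6A stood at 5.00 FPKM (rank 4943) and KDM6B at 1.12 FPKM with its 10 rows summed (rank 7837), the highest of which was at 0.966 FPKM. EZH2 was 6.75 times KDM6A by sums and 4.09 times by highest rows, whereas EZH1 was lower than KDM6A. The third gene listed, UTY, was not found under that gene name. The complex PRC1 ubiquitinates histone H2A, and some of its forms bind H3K27me3 through CBX proteins. The PRC1 genes BMI1, PCGF1 and PCGF5 were not found under these gene names. PRC1 had 10 of 16 measured genes at 1 FPKM or more, beside 50.6% of all genes, and a median of 3.50 FPKM. Its highest genes were the ubiquitin ligase gene RNF2 at 98.6 FPKM and RYBP at 19.7 FPKM. RNF2 thus lay between EED and RBBP7 by sums, and below RBBP7 by its highest row of 46.8 FPKM.

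RBBP4 and RBBP7 also serve other chromatin complexes, whose own genes were set beside them. Of 25 measured genes that build these complexes or bind the pair, 21 stood at 1 FPKM or more, beside 50.6% of all genes. None of the 25 was above RBBP4 and 4 were above RBBP7. Those 4 were SAP18 at 159 FPKM, HAT1 at 128 FPKM, HDAC2 at 101 FPKM and ARID4B at 84.4 FPKM. By highest rows 3 were above RBBP7, since ARID4B (58.6 FPKM) then lay below it, and again none was above RBBP4. RBBP4 was 1.61 times SAP18, the highest of them. SAP18 and ARID4B belong to the SIN3 corepressor, HDAC2 is a histone deacetylase of SIN3 and NuRD, and HAT1, which acetylates new histone H4, works with RBBP7.

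HDAC1 and HDAC2 were counted with NuRD and not with SIN3. In the SIN3 complex 8 of 10 measured genes reached 1 FPKM, with a median of 19.9 FPKM. Besides SAP18 and ARID4B they were SUDS3 (32.2 FPKM), SIN3A (29.8 FPKM), BRMS1 (25.0 FPKM), ARID4A (14.9 FPKM), SAP30 (10.9 FPKM) and SAP130 (8.55 FPKM). ING2 (0.611 FPKM) and SIN3B (0.421 FPKM) were below. In NuRD, a remodelling and deacetylase complex, 8 of 9 did, with a median of 7.68 FPKM. Besides HDAC2 they were HDAC1 (29.0 FPKM), MTA3 (10.4 FPKM), CHD3 (7.70 FPKM), MTA2 (7.68 FPKM), GATAD2A (7.04 FPKM), MBD3 (7.02 FPKM) and GATAD2B (3.21 FPKM). MBD2 was at 0.494 FPKM, and MTA1 was listed at 0 in the run of 474 zero rows that ends the table, so its level is not known and it is not counted among the measured genes. Both genes of the histone chaperone CAF-1 that are not RBBP4, CHAF1B (10.04 FPKM) and CHAF1A (7.98 FPKM), were below SUZ12 (12.8 FPKM) and JARID2 (10.5 FPKM). Of the remodelling genes, SMARCA5 stood at 49.6 FPKM, BPTF at 4.18 FPKM and SMARCA1 at 0.0953 FPKM. CHD4 and ING1 were not found under these gene names.

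**Figure D4:**
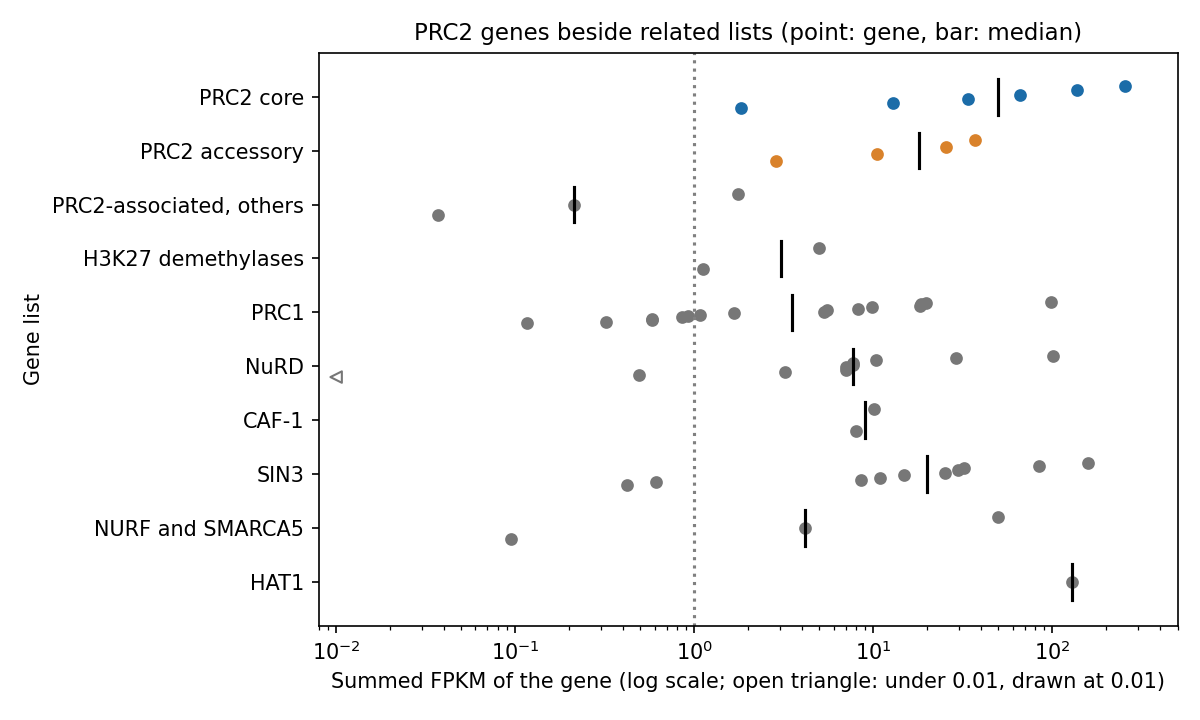
Summed FPKM on a log scale of each measured gene (points) in the PRC2 core, the accessory subunits, other genes tied to H3K27 methylation and complexes that share RBBP4 or RBBP7; black bars are list medians and the dotted line is 1 FPKM. The median of the PRC2 core is 50.0 FPKM and that of the accessory subunits 18.0 FPKM. The medians of PRC1, NuRD and SIN3 are 3.50, 7.68 and 19.9 FPKM, and HAT1, alone in its list, is at 128 FPKM. The open triangle is MTA1, listed at 0 and left out of the NuRD median.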

How the data were processed

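Libraries were made with Smart-seq2, per the labels' protocols. The authors deposited FPKM values per Ensembl transcript with 4 libraries merged into 1 column, per the file headers and the table's name. The tool and annotation behind them are not stated in what was used here. The submitters' processing notes list TopHat2 2.1.1, Cufflinks 2.2.1 and the build susScr11 among others, with no role. FPKM depends on transcript length and on how fragments were assigned to transcripts, and 4534 rows above 0 lay under 1e-06 FPKM, so whole reads and the depth could not be recovered. A gene's level was the sum of its rows, with the highest row as an alternative, and 1 FPKM was the threshold. Ranks ran over all gene names, with ties at the worst rank. Log differences used a pseudocount of 1. Sums, shares and ranks (Python 3.11.15, pandas 2.3.3) were tested on simulated data without zeros or ties, so the rule for ties was not tested. The last 474 rows were at 0 and add nothing to the FPKM total, which the TPM scaling also uses. They hold every row of 215 genes. Those genes, MTA1 among them, stay in the counts, medians and ranks over all genes, though MTA1 was left out of its list. Other alternatives were FPKM scaled to a total of 1000000 (TPM), thresholds of 0.5 and 5 FPKM, filters at 0.1 FPKM, a pseudocount of 0.1, and means. By rule, all members and all measured genes of the lists tied to PRC2, H3K27 demethylation and RBBP4 or RBBP7 were named, and for PRC1 the 3 highest, of which 1 is not reported here. Embryo, egg and other cell markers were counted, with examples chosen after their values were seen. Members and lists were chosen with earlier results of these data known. Genome positions and sequences are not used here.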

Additional observations from a re-analysis of the deposited data

How the results depend on the processing

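All 10 genes stayed at 1 FPKM or more with the highest row, and 8 reached 5 FPKM by sums. Scaling to TPM, which raised every value, and the laxer threshold of 0.5 FPKM could not lower the count of 10. The median level of the 10 was 29.6 FPKM by sums, 16.2 FPKM by highest rows and 97.2 after scaling to TPM, which multiplies every gene alike. The median rank was 1759.5 by sums and 2421 by highest rows. TPM scaling and both filters on genes could not change it. Scaling keeps the order, and the filters removed only genes below all 10. The EZH2 to EZH1 ratio moved from 18.4 to 11.2 with highest rows. The core exceeded the accessory subunits by 1.47 on the log2 scale, by 1.52 with a pseudocount of 0.1, by 1.66 with highest rows and by 1.41 with means, and by 0.33 without RBBP4 and RBBP7. The other lists had 34 of 46 measured genes at 1 FPKM or more, beside 50.6% of all genes. They had 39 at 0.5 FPKM, 27 at 5 FPKM (31.1% of all genes) and 32 with highest rows (48.8%). With MTA1 kept at 0, a choice tried after seeing the data, the NuRD median was 7.36 in place of 7.68 FPKM; the highest rows for the class sums were added then too. No library could be left out in turn, since the deposited column merges them. No paired analysis was possible because the 4 libraries share 1 column and no test was made. Depth is unknown, so the precision of low values such as EZH1 and PHF19 is unknown too.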
